A study of Mus musculus with 4 samples.

Results

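The 10 genes followed here handle dietary fat in the intestinal epithelium and were measured on oligonucleotide arrays: Fabp1, Fabp2, Cd36, Slc27a4, Acsl5, Dgat1, Dgat2, Mogat2, Agpat2 and Plin2. Members were all probe sets to which the platform annotation assigned exactly 1 of these symbols. That gave 13 probe sets for 9 genes, of 22626 probe sets apart from controls, and Agpat2 was not analysed here because no probe set carried its symbol alone. The 4 mice, 2 males and 2 females aged 1 month, gave small intestinal RNA for 1 array each. Both null animals, 1 male and 1 female, were HNF4 loxP/- and carried villin-Cre, a Cre driven by a promoter of the intestinal epithelium. The female control was HNF4 loxP/+ with villin-Cre, and the male control was HNF4 loxP/- without Cre. A minus allele was therefore present in both null animals and in the male control, and Cre in both null animals and in the female control, so the controls differed from each other in genotype as well as in sex. By these genotypes each control would keep 1 intact HNF4 allele in the epithelium, and no animal had 2. The labels do not say which HNF4 gene was targeted, which part of the intestine was taken, or whether the epithelium was separated from the wall.

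Fatty acids and monoglycerides released from dietary fat are taken up at the brush border of enterocytes. CD36 and the transport protein FATP4, encoded by Slc27a4, promote fatty acid uptake, the binding proteins FABP1 and FABP2 carry fatty acids in the cytosol, and acyl-CoA synthetases such as ACSL5 activate them. MOGAT2 and the DGAT enzymes rebuild triglyceride from monoglyceride at the endoplasmic reticulum, AGPAT2 acts in the parallel route from glycerol phosphate, and PLIN2 coats cytosolic lipid droplets. HNF4 receptors bind DNA elements built from hexamers close to AGGTCA, arranged as a direct repeat. Setting null beside control intestine addresses whether these transcripts depend on the HNF4 allele left intact in the epithelium of the controls.

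Median deposited intensities per array were 43.2 to 53.3, and the male null animal was the dimmest. Over the probe sets tested its log2 values correlated with those of the female null animal at r = 0.921, the lowest of any pair, and with the controls at 0.946 (male) and 0.939 (female), against 0.952 to 0.965 among the other 3 arrays. Hnf4a on probe set 1427001_s_at had intensities of 1136 in the male and 1025 in the female null animal, against 731 in the male and 1141 in the female control. All 6 probe sets of the family, 4 of Hnf4a and 2 of Hnf4g, had a higher mean in null than in control intestine, by 0.08 to 0.32 on the log2 scale, and 0 passed in limma. By group mean no HNF4 probe set was therefore lower in the animals that the labels call null. Between the females Hnf4a was lower on 1421983_s_at (−0.24), 1427001_s_at (−0.16) and 1450447_at (−0.07) and higher on 1427000_at (0.10). Both Hnf4g probe sets were higher between the females (0.06 and 0.16), and all 6 were higher between the males (0.15 to 0.62). Which part of the gene was deleted is not stated in the labels, and without it these values do not check the labels. The 26 intensities of 13 Y-linked probe sets on the female arrays, where these genes are absent, ran from −3.88 to 75.4. Their median was 22.7. The highest was 1 Sry value, whose probe set read 33.0 on the other female array. On the male arrays the 3 Xist probe sets read 1.12 to 17.8. The array medians of 43.2 to 53.3 lie inside the Y-linked range, so a value in it does not by itself show absence. Below, the Y-linked range is called the level or range of absent transcripts, and the share of all probe sets in it was not counted. All 13 member probe sets were bright enough to test, and 12 of them lay above that level on every array, at 359 or more.

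No member passed the test between null and control intestine. Members called by limma (adjusted p under 0.05, by Benjamini-Hochberg over the 15838 probe sets tested) were 0 of 13, where the share over all probe sets was 0.0126%. With sex as a block the members called were again 0 of 13, where 0.183% of all probe sets passed. Every adjusted p of a member was 1.00 in limma without the block, and the smallest with it was 0.394, for Slc27a4. At an unadjusted p under 0.05, 2 member probe sets were lower and 0 higher in limma, where 1.72% of all probe sets were lower and 1.31% higher at that level. With the block 3 member probe sets (of Slc27a4, Fabp1 and Dgat2) had an unadjusted p under 0.05 in limma, where 5.08% of all probe sets did. The differences below are therefore values with intervals, on the scale of log2(intensity + 16) after quantile normalization, and with 2 animals a group they do not show that any member was equal between the groups.

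**Figure D1:**
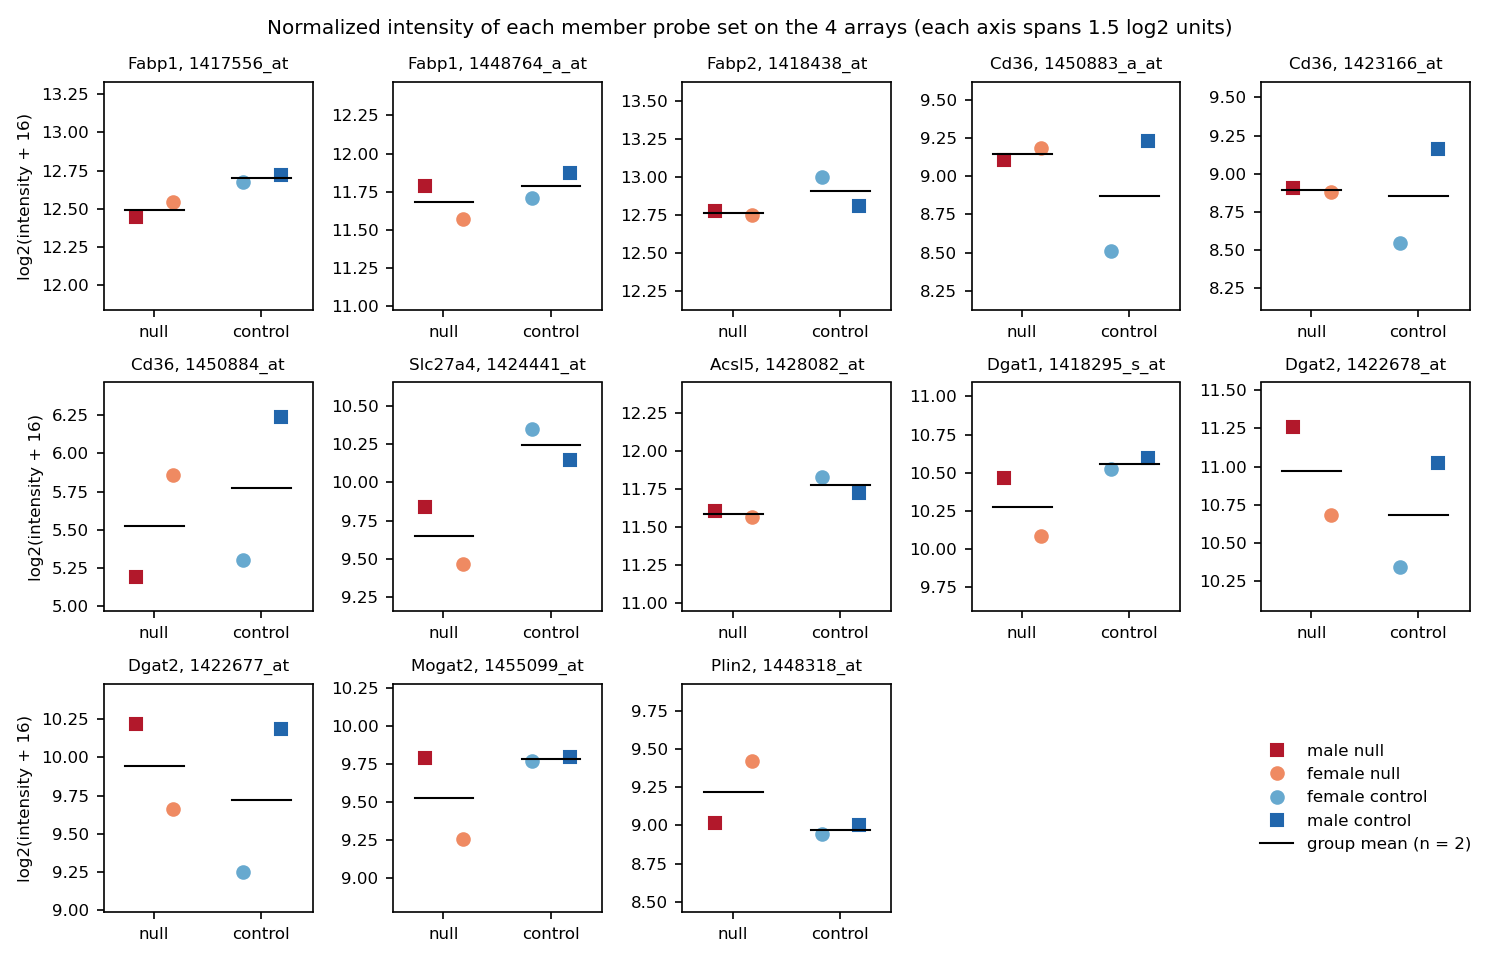
Each panel plots log2(intensity + 16) after quantile normalization for 1 probe set on the 4 arrays, with null animals on the left, controls on the right, squares for males, circles for females and lines for the group means. Slc27a4 has both null animals below both controls, while both Dgat2 panels have the males above the females within each group.

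Slc27a4 had the largest difference of the members. Its deposited intensities were 890 in the male and 683 in the female null animal, against 1134 in the male and 1288 in the female control. Both null animals lay below both controls. On the log2 scale it averaged 9.65 ± 0.27 in null and 10.25 ± 0.14 in control intestine (SD, n = 2 each). The difference was −0.60 with a 95% interval of −1.02 to −0.17, or 1.51-fold lower in null intestine, and it ranked 105 among all probe sets by p in limma (unadjusted p = 0.013, adjusted p = 1.00). The unadjusted p in limma was 0.041 without a trend in the prior and 0.066 with arrays scaled to a common median. The difference was −0.31 between the males and −0.88 between the females, so the direction was shared while the size differed. With each array left out in turn it lay between −0.78 (male null animal left out) and −0.41 (female null animal left out). The promoter is shown because Slc27a4 has the smallest p of the members. The sequence is the 250 bases before the RefSeq gene start on the plus strand (GRCm38.p6, chr2:29802384-29802633), and none of the letters AGGTCA, CAAAGTCCA or CAAAGGTCA occurs in it on either strand.
Slc27a4: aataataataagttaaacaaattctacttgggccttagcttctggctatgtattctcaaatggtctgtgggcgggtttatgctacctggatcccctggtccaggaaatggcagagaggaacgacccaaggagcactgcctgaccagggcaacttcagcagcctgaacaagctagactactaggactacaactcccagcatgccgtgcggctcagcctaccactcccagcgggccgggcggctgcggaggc

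By a rule of closest profile (smallest Euclidean distance between log2 values centred on their own mean over the 4 arrays, among 14425 other probe sets with a single gene), the nearest to Slc27a4 were Hsd17b4, Cdc37 and Msmo1. Hsd17b4, a peroxisomal enzyme of fatty acid oxidation, lay at a distance of 0.048 and had intensities of 361 in the male and 291 in the female null animal, against 458 in the male and 559 in the female control. Msmo1, a sterol methyl oxidase of cholesterol synthesis, lay at 0.0549, with 178 in the male and 154 in the female null animal, against 253 in the male and 287 in the female control. Cdc37, which encodes a co-chaperone, lay at 0.0509, but its intensities, 34.6 in the male and 31.5 in the female null animal, against 53.6 in the male and 67.6 in the female control, fall in the range seen for absent transcripts on every array. Over so few arrays close profiles occur among many probe sets, and these are given as a description.

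Of the cytosolic binding proteins, Fabp1 and Fabp2 were among the brightest probe sets on the arrays and differed little between the groups. Fabp1 on 1417556_at had intensities of 5851 in the male and 5753 in the female null animal, against 6805 in the male and 6650 in the female control, with no overlap. The difference was −0.21 (SE 0.08, 95% interval −0.39 to −0.02), or 1.15-fold lower in null intestine, at an unadjusted p of 0.034 in limma (adjusted p = 1.00). That p depended on the processing. In limma it was 0.331 without a trend in the prior and 0.508 with arrays scaled to a common median. The other Fabp1 probe set, 1448764_a_at, read 3639 in the male and 2961 in the female null animal, against 3697 in the male and 3340 in the female control. There the groups overlapped and the difference was −0.11 (95% interval −0.39 to 0.17). Both probe sets were lower in each sex, by −0.28 and −0.08 in the male pair and −0.13 and −0.14 in the female pair.

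Fabp2, the intestinal form, had intensities of 6906 in the male and 6580 in the female null animal, against 7327 in the male and 7836 in the female control. The null arrays lay below the controls, by 0.04 from the male null animal to the nearer control. Its difference was −0.14 (SE 0.08, 95% interval −0.35 to 0.06), −0.04 between the males and −0.25 between the females. On the scale of array signal, the intervals of both genes exclude a change of 1 log2 unit in either direction. Fabp1 on 1417556_at and Fabp2 lie near the top of the intensity range, at percentiles 99.92 and 99.96 of mean level. Whether signal there follows the amount of RNA in proportion was not tested.

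Promoter windows from 250 bases before to 50 after the start were held by the RefSeq table (GRCm38.p6) for 7 members, Fabp1, Fabp2, Cd36, Slc27a4, Acsl5, Agpat2 and Plin2. The 9-letter sequences CAAAGTCCA and CAAAGGTCA, both forms of the HNF4 element, were in 0 of the 7 on either strand, against 0.475% and 0.478% of all 32851 windows. The half-site AGGTCA was in 3 of the 7 on the opposite strand, where 16.3% of all windows hold it on either strand. Fabp1 had it at −67 to −62 and again at −9 to −4, counted from the start with −1 as the base before it. Cd36 had it at −228 to −223 and Plin2 at −218 to −213. Fabp1 had the only window of the 7 with more than 1 match. Plin2 had a mean difference above 0, at 0.25 with a 95% interval of −0.21 to 0.71 that includes 0. The promoters of Fabp1 (chr6:71199629-71199878, plus strand) and of Plin2 (chr4:86670060-86670309, minus strand) are printed for their 250 bases before the start, with the half-site in capitals as TGACCT.
Fabp1: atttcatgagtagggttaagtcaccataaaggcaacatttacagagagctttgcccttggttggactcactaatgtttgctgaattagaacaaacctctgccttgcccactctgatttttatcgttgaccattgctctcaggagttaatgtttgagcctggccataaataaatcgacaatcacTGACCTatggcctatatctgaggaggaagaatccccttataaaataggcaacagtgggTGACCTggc
Plin2: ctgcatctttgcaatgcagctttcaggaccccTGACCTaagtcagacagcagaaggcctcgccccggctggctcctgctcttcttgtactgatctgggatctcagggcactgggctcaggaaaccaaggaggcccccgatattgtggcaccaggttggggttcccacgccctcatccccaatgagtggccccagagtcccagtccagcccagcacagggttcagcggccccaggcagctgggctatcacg

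Acsl5, an acyl-CoA synthetase abundant in the gut, had intensities of 3142 in the male and 2944 in the female null animal, against 3389 in the male and 3654 in the female control. The groups did not overlap. The difference was −0.19 (SE 0.10, 95% interval −0.42 to 0.04), which is 1.14-fold lower in null intestine. It was −0.12 between the males and −0.26 between the females, and −0.24 to −0.14 with each array left out in turn.

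Cd36, the scavenger receptor that binds long-chain fatty acids, had opposite signs in the male and the female pair on its 3 probe sets. Of all probe sets 51.6% had opposite signs. On 1450883_a_at the intensities were 527 in the male and 561 in the female null animal, against 585 in the male and 359 in the female control. On 1423166_at they were 451 in the male and 459 in the female null animal, against 557 in the male and 370 in the female control. In both probe sets the null animals lay close together and between the controls, which differed from each other by 0.73 and 0.62 log2 units. The null minus control differences were 0.28 (95% interval −0.33 to 0.89) and 0.04 (−0.52 to 0.60). The third probe set, 1450884_at, read 16.7 in the male and 45.8 in the female null animal, against 60.4 in the male and 24.1 in the female control, within the range of the Y-linked probe sets on female arrays. Its value of −0.25 (95% interval −1.19 to 0.69) carries no weight, and it is the member closest to the filter on dim probe sets, at percentile 38.3 of mean level. On 1450883_a_at and 1423166_at the male pair was below 0 (−0.13 and −0.26) and the female pair above it (0.68 and 0.34). The sign on 1450883_a_at and 1423166_at rested on the female control, without which the differences were −0.09 and −0.27.

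Among the enzymes of triglyceride synthesis, Dgat1 and Mogat2 were lower and Dgat2 higher in the null animals as a mean, none of them past the threshold. Dgat1, an acyltransferase of the endoplasmic reticulum required for efficient fat absorption, had intensities of 1396 in the male and 1062 in the female null animal, against 1558 in the male and 1456 in the female control. Both null animals were below both controls. The difference was −0.28 (SE 0.16, 95% interval −0.67 to 0.10), or 1.22-fold lower, −0.13 between the males and −0.44 between the females. The female null animal set its size, since the difference without that animal was −0.10. The suffix of the Dgat1 probe set, _s_at, marks on these arrays probes that can match transcripts of more than 1 gene, although the annotation names only Dgat1.

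Mogat2, the monoacylglycerol acyltransferase that starts the main intestinal route, had intensities of 858 in the male and 594 in the female null animal, against 877 in the male and 865 in the female control. The male null animal was level with the controls and the female null animal was alone below them. The difference was −0.26 (SE 0.20, 95% interval −0.75 to 0.23), at −0.01 between the males and −0.51 between the females, and 0.01 without the female null animal.

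Dgat2, which also makes triglyceride but is unrelated in sequence to Dgat1, had intensities of 2469 in the male and 1592 in the female null animal, against 2111 in the male and 1281 in the female control, on 1422678_at. On 1422677_at the values were 1169 in the male and 794 in the female null animal, against 1173 in the male and 605 in the female control. The groups overlapped on both probe sets. The null minus control differences were 0.29 (SE 0.27, 95% interval −0.35 to 0.93) and 0.22 (SE 0.33, −0.56 to 1.01). Between the males they were 0.24 and 0.03, and between the females 0.34 and 0.41, so both pairs were above 0 on both probe sets. Without the female control they were −0.05 and −0.25, but the only control is then a male, and sex is not balanced over the groups. Both males were above both females. In a comparison chosen after the values were seen, the male minus female difference, in a model that also held null against control, was 0.63 on 1422678_at (95% interval 0.37 to 0.88, adjusted p = 0.0446 in limma) and 0.75 on 1422677_at (0.42 to 1.07, adjusted p = 0.0648). It was 0.58 within the null and 0.68 within the control animals on 1422678_at, and 0.55 within the null and 0.94 within the control animals on 1422677_at. Over all probe sets 0.53% passed in that comparison, and of the members only this probe set of Dgat2 did. The call was lost when arrays were scaled to a common median (adjusted p = 0.234) and without a trend in the prior (0.706). Within the null animals it compares 1 male with 1 female of the same genotype, while the male control was loxP/- without Cre and the female control loxP/+ with Cre, so there sex and genotype cannot be told apart. Nor can sex be told apart from whatever the animal numbers in the labels, which are adjacent within each sex, may stand for.

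Plin2, the coat protein of cytosolic lipid droplets, was the only member whose normalized values were higher on both null arrays. Its intensities were 485 in the male and 662 in the female null animal, against 495 in the male and 483 in the female control. The male null animal was level with the controls in deposited values, where the groups overlapped, and the female null animal was above them. The difference was 0.25 (SE 0.19, 95% interval −0.21 to 0.71), at 0.01 between the males and 0.48 between the females, and 0.04 without the female null animal.

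**Figure D2:**
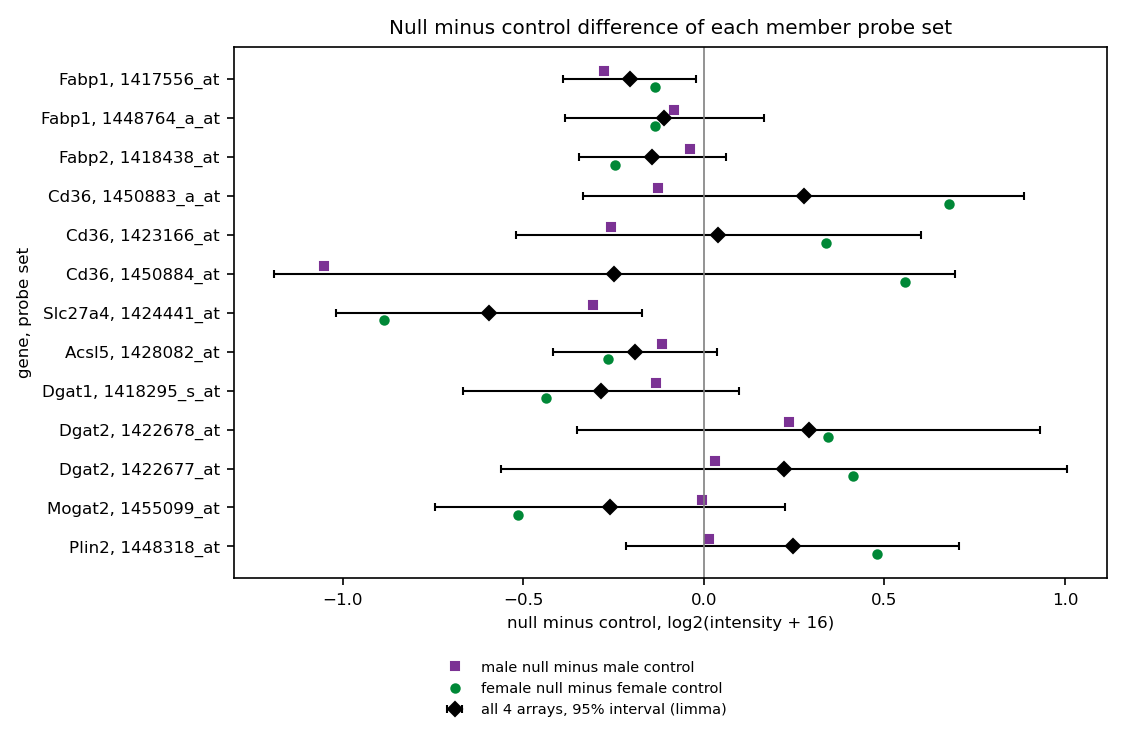
Null minus control differences in log2(intensity + 16) are plotted for the 13 member probe sets, with diamonds and 95% limma intervals over all 4 arrays, squares for the male pair and circles for the female pair. The intervals of Slc27a4 and of 1 Fabp1 probe set lie below 0 before adjustment, and the 3 Cd36 probe sets, of which 1450884_at is at the level of absent transcripts, have the pairs on opposite sides of 0. With arrays scaled to a common median, neither Slc27a4 nor that Fabp1 probe set had an unadjusted p under 0.05 in limma.

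Over the 13 probe sets the median difference was −0.14, from −0.60 to 0.29, with 8 lower and 5 higher, beside a median of −0.01 over all 15838 probe sets tested. With 1 array left out the median was −0.15 (male null animal left out), −0.0008 (female null animal), −0.03 (male control) or −0.23 (female control). Both null arrays were below both controls on 5 probe sets (Fabp1, Fabp2, Slc27a4, Acsl5 and Dgat1), against 16.3% of all probe sets, and above both on 1 (Plin2), against 13.5%. In deposited intensities these counts were 6, with Mogat2 added, and 0, against 16.7% and 11.2%. In both the male and the female pair 7 member probe sets were below 0 and 3 above, against 25.7% and 22.6% of all probe sets. The pairs had opposite signs on the 3 of Cd36, 1 of them at the level of absent transcripts, against 51.6% of all probe sets.

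Fat absorption is a task of enterocytes. Of 8 enterocyte markers tested, 7 had values below 0 and 1 above, with a median of −0.26 and 0 past the threshold in limma. The median was −0.12 between the males and −0.44 between the females, −0.40 with the male null animal left out but −0.08 when the female one was. Their summed deposited intensity was 13669 in the male and 10497 in the female null animal, against 14352 in the male and 14703 in the female control, so the groups did not overlap. These sums are not normalized, and the male null array was the dimmest, with a median intensity of 43.2 against 49.5 in the male control. The keratin gene Krt20 was at −0.36 (SE 0.12), the aminopeptidase gene Anpep at −0.39 (SE 0.14) and the trehalase gene Treh at −0.38 (SE 0.23). The villin gene Vil1, with 1971 in the male and 1343 in the female null animal, against 2021 in the male and 2335 in the female control, was at −0.38 and differed in the female pair (−0.75) and hardly in the male pair (−0.0005). The lactase gene Lct was at −0.12, the glucose transporter gene Slc5a1 at −0.17, the meprin gene Mep1a at −0.14 and the ezrin gene Ezr at 0.03. The values of Fabp1, Fabp2, Acsl5 and Dgat1 lie within the range of these markers and that of Slc27a4 below all 8, and the part of the enterocyte markers in the member values was not tested. In RNA taken from many cells together, fewer cells of a type and less RNA per cell cannot be told apart.

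Markers of goblet cells, the mucus secreting cells of the epithelium, had values above 0. Both null animals were above both controls in 8 of 8 goblet cell markers tested, 1 of them in the range of absent transcripts, against 13.5% of all probe sets, with a median of 0.43 (0.29 to 0.43 with each array left out) and 0 past the threshold in limma. Spink4 was at 0.60 (SE 0.13) and Agr2 at 0.62 (SE 0.14). Their summed intensity was 23325 in the male and 20961 in the female null animal, against 18321 in the male and 17675 in the female control, and their part in the member values was not tested.

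The female null animal, the array with the lowest values of Slc27a4, Acsl5, Fabp2, Dgat1 and Mogat2, also had the lowest enterocyte sum and the highest smooth muscle sum. The 10 smooth muscle markers summed to 2714 in the male and 3909 in the female null animal, against 2838 in the male and 2718 in the female control. All 9 that were tested were above 0, with a median of 0.29, which was −0.22 between the males and 0.71 between the females, and −0.02 without the female null animal. Lmod1 read 13.3 to 61.8, in the range of absent transcripts on every array, Des was at 0.50 (SE 0.23), and 0 passed the threshold in limma. Its part in the values of the female null animal was not tested.

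Cd36, Dgat2 and Plin2 are also expressed in cells other than enterocytes, and markers of fat cells, endothelium and macrophages were read beside them. Of the adipocyte markers, the defining Adipoq read 8.70 in the male and 15.2 in the female null animal, against 12.7 in the male and 12.1 in the female control, which is at the level of absent transcripts, as was Car3 (3.50 to 24.5). The 8 measured adipocyte markers summed to 432 in the male and 510.1 in the female null animal, against 459.7 in the male and 388 in the female control, with 3 of the 4 tested above 0. Of these, Retn read 39.1 to 69.1, in the range of absent transcripts, and the lipase gene Lipe was at 0.30 (SE 0.23). Endothelial markers summed to 416 in the male and 542 in the female null animal, against 416 in the male and 373 in the female control, with 4 of 6 tested above 0, 4 of the 6 in the range of absent transcripts on all arrays, and Egfl7 and Kdr at 0.50 and 0.37. The female control was lowest in both sums and in both bright Cd36 probe sets. Macrophage markers summed to 3512 in the male and 3463 in the female null animal, against 3950 in the male and 3510 in the female control, with Cd14 at 0.83 and Lyz2 at −0.17. Without the female control the medians of these 3 lists were 0.05, 0.06 and −0.24, beside 0.28, 0.22 and 0.08 over all arrays. No marker of these 3 lists passed the threshold in limma, and their part in the Cd36, Dgat2 and Plin2 values was not tested.

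Beyond the members, 7 lists of the same pathway held 114 genes, of which 98 had a probe set of their own and 91 were bright enough to test. Over all of them 0 passed in limma without a block and 1 with sex as a block. The list medians below are given with their range over leaving out each array. Among fatty acid transport and binding genes, 7 of 12 were below 0, with a median of −0.04 (−0.07 to −0.03) and 6 of the 12 in the range of absent transcripts on all arrays. Slc27a2, another transport protein of the same family as Slc27a4, was at −0.22 (SE 0.18), and Dbi, the acyl-CoA binding protein, at 0.13 (SE 0.11). Among acyl-CoA synthetases 2 of 6 were below 0, with a median of 0.20 that was −0.04 with the male null animal left out but 0.37 when the female one was. On all arrays 4 of the 6 were in the range of absent transcripts, among them the acetyl-CoA synthetase gene Acss1 at 34.1 to 72.0, and Acsf2 was at 0.57 (SE 0.42).

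Glycerolipid synthesis genes outside the members had 5 of 13 below 0 and a median of 0.07 (0.002 to 0.13). Gpd1, which makes glycerol 3-phosphate for triglyceride, had intensities of 1309 in the male and 1213 in the female null animal, against 1879 in the male and 1689 in the female control. The groups did not overlap, at −0.46 (SE 0.12), −0.49 between the males and −0.43 between the females, with an adjusted p of 1.00 in limma and 0.368 with sex as a block. Its probe set, 1439396_x_at, has a suffix that marks probes which may cross-hybridise. Lclat1, an acyltransferase of lysophospholipids, was at 0.35 (SE 0.20). Lipid droplet and lipolysis genes had 7 of 13 below 0 and a median of −0.02 (−0.15 to 0.13), and 6 of the 13 were in the range of absent transcripts, with the seipin gene Bscl2 at −0.28 (SE 0.20) and the coat protein gene Plin3 at −0.26 (SE 0.19).

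In the chylomicron list 8 of 16 were below 0 and the median was 0.005 (−0.11 to −0.05 with each array left out). Apoa4, an apolipoprotein secreted on chylomicrons, had 5953 in the male and 5977 in the female null animal, against 5594 in the male and 4547 in the female control, at 0.27 (SE 0.11), and Sec23a, a coat component of vesicles leaving the endoplasmic reticulum, was at −0.29 (SE 0.17). The triglyceride transfer protein gene Mttp had 2428 in the male and 2731 in the female null animal, against 2374 in the male and 2638 in the female control, and the groups overlapped.

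Of the nuclear receptors and co-factors of lipid genes 10 of 18 were below 0, with a median of −0.07 (−0.16 to 0.02). Ppara, the fatty acid sensing receptor, had intensities of 151 in the male and 96.6 in the female null animal, against 231 in the male and 177 in the female control. It stood at −0.63 (SE 0.31) and its groups did not overlap. Pparg was at −0.57 (SE 0.28) with intensities of 33.3 to 84.2, near the level of absent transcripts. In the list of other PPAR target genes, which holds genes of fatty acid oxidation, 11 of 13 were below 0 with a median of −0.20 (−0.37 to −0.11). Both null animals were below both controls in 7 of the 13, against 16.3% of all probe sets. Acaa1b, a peroxisomal thiolase, had 134 in the male and 219 in the female null animal, against 492 in the male and 453 in the female control, at −1.34 (SE 0.22), and was the 1 gene of the 7 lists that passed with sex as a block (adjusted p = 0.0372 in limma, 1.00 without the block). Slc25a20, the mitochondrial carnitine carrier, was at −0.56 (SE 0.19). The members Fabp1, Plin2 and Cd36 are PPAR targets too, and which other members are was not examined here. Fabp1 was at −0.21 and −0.11 and Plin2 at 0.25, while the sign of Cd36 rested on the female control.

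**Figure D3:**
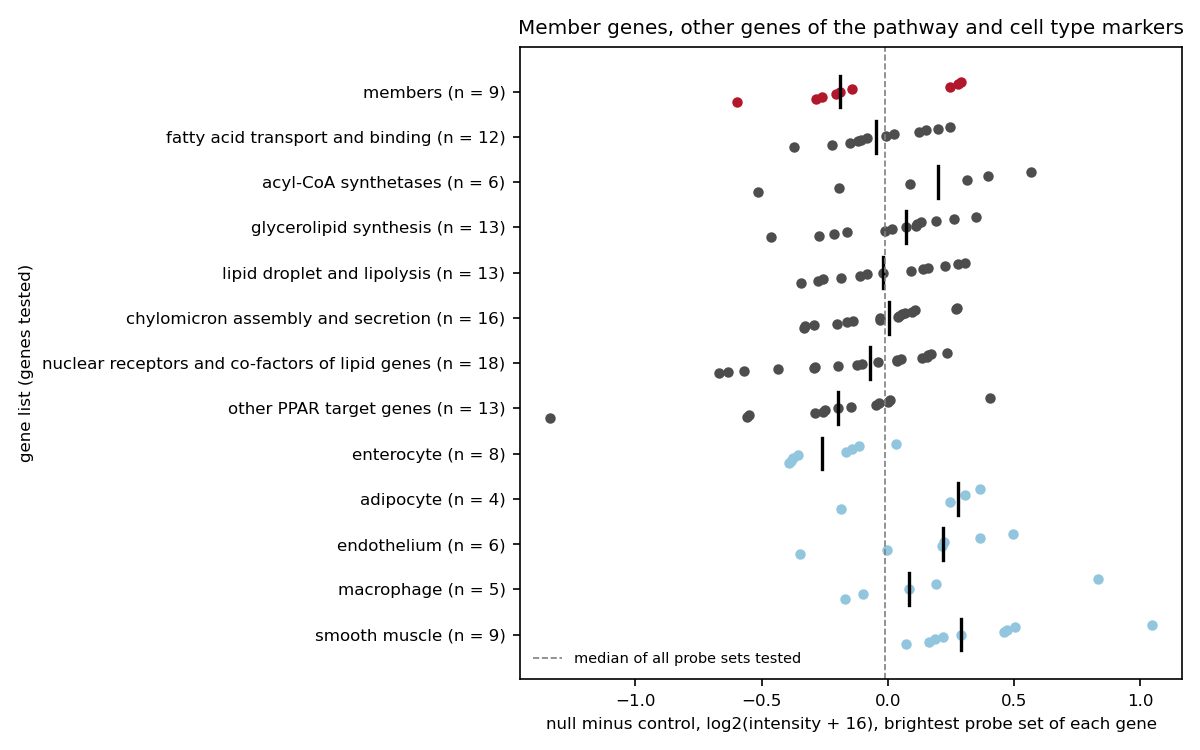
Null minus control differences in log2(intensity + 16) of single genes (points) are shown for the 9 member genes, 7 lists of other pathway genes and 5 cell type marker lists, each gene by the probe set of highest mean, with black bars for list medians and a dashed line for all probe sets. The enterocyte points lie mostly below 0, as do the other PPAR target genes, while the member points lie on both sides.

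Genes listed as proximal or distal markers were also read, since fat is absorbed mainly in the proximal small intestine. Several of them, such as Gip, Ghrl, Cck and Nts, are gut hormone genes. Region and the cells that make hormones were therefore not told apart by these lists. Of 7 proximal genes tested 5 were above 0, with a median of 0.19, −0.17 between the males and 0.60 between the females, and −0.03 without the female null animal. Their summed intensity was 1111 in the male and 1428 in the female null animal, against 2039 in the male and 1088 in the female control, where Gip, the brightest of them, was at −0.61. Ghrl was at 1.70 and Cck at 0.71. The Ghrl controls, at 6.57 and 27.7, were at the level of absent transcripts. All 5 distal genes tested were below 0, with a median of −0.13 that was −0.50 without the male control, −0.27 without the female null animal and −0.22 without the male null animal. Their summed intensity was 413 in the male and 578 in the female null animal, against 715 in the male and 766 in the female control, with Nts at −1.61 and Osr2 at −0.57. Fabp6, the ileal bile acid binding protein of the same family as Fabp1, read 23.7 in the male and 37.2 in the female null animal, against 21.3 in the male and 53.8 in the female control, in the range of absent transcripts on every array. No gene of these lists passed in limma, and their part in the member values was not tested.

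**Figure D4:**
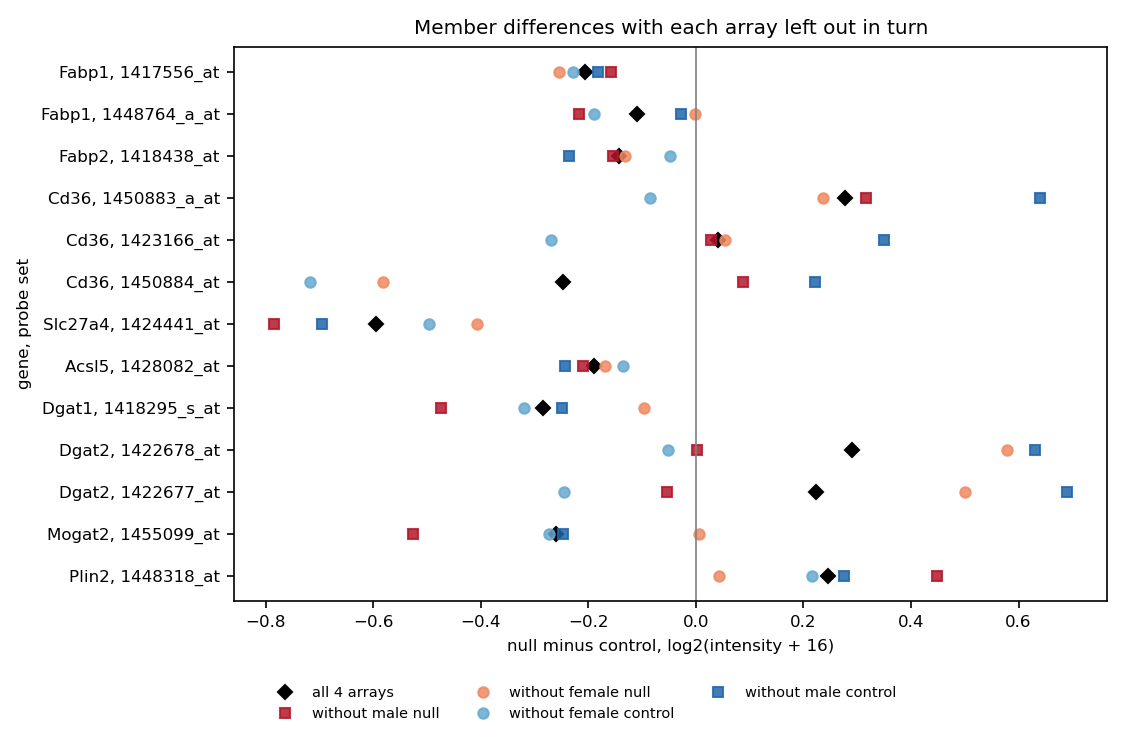
Member differences in log2(intensity + 16) are plotted for all 4 arrays (diamonds) and with each array left out in turn. Fabp1, Fabp2, Slc27a4, Acsl5, Dgat1 and Plin2 keep their side of 0 in all 4 cases, and Cd36, Dgat2 and Mogat2 do not on at least 1 probe set. With an array left out, 1 group holds a single animal, so sex is not balanced over the groups.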

How the data were processed

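The deposited table holds linear intensities, 1 for each probe set on each array, made by the authors with software not given in the sources used here; per the labels' protocols, total RNA was isolated with a Qiagen kit and labelled with biotin for Affymetrix arrays. Gene names are those of the platform annotation, checked by Entrez identifier against RefSeq (GRCm38.p6), and 20380 of 22626 had a single gene. Array medians differed by 0.23 on the scale of log2(intensity + 16), above a limit of 0.2, so intensities were quantile normalized, values below 0 were raised to 0, and log2(intensity + 16) was taken. The dimmest 30% of probe sets by mean were left out, which kept 15838. Null was set against control with limma 3.58.1 under R 4.3.3 (lmFit, eBayes with an intensity trend, two-sided, Benjamini-Hochberg over those kept, threshold 0.05, 2 residual and 4.65 prior degrees of freedom). The fit was tested on simulated data whose added changes were larger than any member difference. It was therefore not tested at the sizes reported here. The sex term came from the same limma model with sex added. Members and gene lists were chosen with earlier results of these data known. Named were all member probe sets and the 2 genes with the smallest p of each list, each gene taken at the probe set of highest mean; Vil1, Treh, Lct, Slc5a1, Mep1a, Ezr, Gip, Mttp, Adipoq, Car3 and Fabp6 were named outside that rule after their values were seen. Summed marker levels add deposited intensities with values below 0 set to 0, without normalization between arrays. The 4 arrays are separate animals, and their number limits the precision. Promoter letters were matched exactly on both strands. Alternatives were other normalizations, pseudocounts, filters and priors, sex as a block, and each array left out.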

Additional observations from a re-analysis of the deposited data

Results flagged for a closer look

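Several values had opposite signs in the male pair (male null minus male control) and the female pair (female null minus female control); with 1 animal per sex and group this difference was not tested, and 51.6% of all probe sets had opposite signs. The null minus control log2 difference of Cd36 was −0.26 in the male and 0.34 in the female pair on 1423166_at, −0.13 and 0.68 on 1450883_a_at, and −1.05 and 0.56 on 1450884_at, whose values are at the level of absent transcripts, male before female. Among pathway lists, male before female, the medians were 0.07 and −0.06 for fatty acid transport and binding, −0.08 and 0.10 for glycerolipid synthesis, 0.07 and −0.11 for lipid droplets and lipolysis, and −0.06 and 0.01 for chylomicron assembly. Among cell type and region lists they were −0.10 and 0.23 for adipocytes, −0.08 and 0.38 for endothelium, −0.19 and 0.10 for macrophages, −0.22 and 0.71 for smooth muscle, 0.30 and −0.18 for pancreatic acinar cells, 0.11 and −0.24 for hepatocytes, and −0.17 and 0.60 for proximal small intestine.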

How the results depend on the processing

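The groups share no replicate numbers in the labels, and the paired fit was that with sex as a block, which sets each null animal against the control of its sex and leaves 1 residual degree of freedom. In limma 0 member probe sets passed under each of the 12 alternatives, where 0 to 4 had an unadjusted p under 0.05, and the smallest adjusted p was 0.217, for Fabp1 without the female null animal. The 4 alternatives that leave out an array leave a group with 1 animal, so sex is not balanced over the groups. That animal is assumed to vary like the other group. Over the other alternatives the smallest adjusted p was 0.394 in limma. Over all probe sets 2 passed, against 29 with sex as a block, 1 without a trend, and 0 to 29 with each array left out, where those with 0 had 199 and 220 at an unadjusted p under 0.05. The median over members was −0.23 to −0.0008 with each array left out and −0.168 to −0.114 under the other alternatives. Of 155 member values, 147 kept their sign. The 8 that did not all came from leaving out an array, with ranges of −0.25 to 0.69 and −0.051 to 0.63 for Dgat2 on 1422677_at and 1422678_at, −0.27 to 0.35, −0.0856 to 0.64 and −0.72 to 0.22 for Cd36 on 1423166_at, 1450883_a_at and 1450884_at, and −0.53 to 0.006 for Mogat2. Of 19 list medians, 9 kept their sign with each array left out and 10 did not. Dgat2 by sex kept its sign under 7 alternatives added after the values were seen, with adjusted p of 0.00594 to 0.706 on 1422678_at and 0.0125 to 0.663 on 1422677_at. Without arrays' probe intensities, signal over background could not be judged for single values.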

Other observations

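Of the other marker lists, T cells and intraepithelial lymphocytes had 6 of 7 genes tested below 0 with a median of −0.38, which was −0.10 with the male null animal left out but −0.58 when the male control was, with Cd7 at −0.84 and Gzma at −0.61. Medians with each array left out changed sign for the next 3 lists. Crypt and cycling genes had a median of 0.11 (−0.05 to 0.27), with Cdk1 at 0.28 and Mki67 at −0.25. Pancreatic acinar genes had one of 0.11 (−0.19 to 0.40), with Cpa1 at 0.475 and Cela3b in the range of absent transcripts. Hepatocyte genes had one of −0.14 (−0.29 to 0.04), with Cps1 at −0.18 and Serpinc1 in the range of absent transcripts. None of these genes passed in limma.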
